A study of Mus musculus with 17 samples.

Results

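The 10 macrophage genes Csf1r, Cd68, Cx3cr1, Mrc1, C1qa, C1qb, C1qc, Lyz2, Tyrobp and Fcer1g were followed through 17 mouse poly(A) RNA-seq libraries from testes and sorted spermatocytes. They were chosen by symbol as well-known macrophage genes, and each was found once in both tables, 10 of 23980 genes per table. The study compared wild-type (WT) animals with animals lacking Pld6, whose mitochondrial product takes part in the biogenesis of PIWI-interacting RNAs, and animals lacking Dnmt3l, which encodes a cofactor of DNA methyltransferases in fetal germ cells. All animals carried a C57BL/6J background. Spermatocytes at leptotene/zygotene (L/Z), early in meiosis, had been sorted from testes at 3 to 4 weeks of age and gave 2 libraries each for WT, Pld6 KO and Dnmt3l KO, read as single 50-bp ends. Whole testes from postnatal day 0 (P0) gave 2 WT, 4 Pld6 KO, 2 Dnmt3l KO and 3 Pld6/Dnmt3l double-knockout (DKO) libraries, read as 100-bp pairs. The sorting used a DNA dye and no macrophage marker, and both mutants lack the later germ cells at the age of sorting, so the cells around the sort gate differ between genotypes. No macrophage fraction was isolated, so every value below is a share of the RNA of a sorted germ cell fraction or of a whole testis. A change in macrophage number cannot be told apart from a change in RNA per macrophage. Nor can either be told apart from expression of these genes by other cells, the sorted germ cells included.

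Macrophages settle in the fetal testis and persist in the adult, where they lie between the tubules and over the peritubular wall. They depend on the cytokine CSF1, which signals through the receptor tyrosine kinase encoded by Csf1r, and they clear dying cells and help to shape the vasculature. Cx3cr1 encodes the receptor for fractalkine, and Mrc1 encodes the mannose receptor CD206, an endocytic receptor of resident macrophages. Cd68 encodes a heavily glycosylated protein of the endosome and lysosome membrane, and Lyz2 encodes lysozyme M. Tyrobp (DAP12) and Fcer1g (the Fc receptor gamma chain) encode signalling adaptors with ITAM motifs, and C1qa, C1qb and C1qc encode the 3 chains of the complement component C1q, which macrophages themselves secrete. Several of these genes are not limited to macrophages: Lyz2, Tyrobp and Fcer1g are also used by neutrophils, and Fcer1g by mast cells.

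In GRCm38.p6 all 10 genes are annotated as protein-coding. The C1q genes stand next to each other on the minus strand of chromosome 4 within 18719 bp, in the order C1qb (136880126 to 136886200), C1qc (136889801 to 136892936) and C1qa (136895916 to 136898844). Mrc1 lies on chromosome 2 (14229414 to 14332023), Cx3cr1 on chromosome 9 (120048683 to 120068296), Tyrobp on chromosome 7 (30413782 to 30417582) and Fcer1g on chromosome 1 (171229572 to 171234349). Cd68 (chromosome 11, 69664213 to 69666170) starts 765 bp from Eif4a1, a much more abundant gene. Lyz2 (chromosome 10, 117277541 to 117282272) lies 5522 bp from its near-identical paralogue Lyz1, so fragments of the pair could be shared out wrongly and its values are uncertain to that extent.

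The stretches before the RefSeq start sites of Mrc1, C1qb and C1qc are shown because the C1q genes moved together over libraries and Mrc1 did not follow them. Each is 250 bases long, 5′ to 3′ on the gene's own strand, and capitals mark GAGGAA on either strand, the core letters read by the myeloid factor PU.1.
Mrc1 (chr2:14229164-14229413, plus strand): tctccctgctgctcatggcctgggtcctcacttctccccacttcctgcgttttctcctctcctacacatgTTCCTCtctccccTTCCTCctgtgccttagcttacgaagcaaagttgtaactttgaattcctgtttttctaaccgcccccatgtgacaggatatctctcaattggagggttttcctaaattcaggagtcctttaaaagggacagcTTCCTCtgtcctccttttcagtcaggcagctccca
C1qb (chr4:136886201-136886450, minus strand): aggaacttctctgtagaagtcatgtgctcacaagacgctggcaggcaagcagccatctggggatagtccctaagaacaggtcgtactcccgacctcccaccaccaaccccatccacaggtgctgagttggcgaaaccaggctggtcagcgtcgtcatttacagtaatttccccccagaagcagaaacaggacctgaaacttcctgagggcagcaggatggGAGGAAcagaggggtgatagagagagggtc
C1qc (chr4:136892915-136893164, minus strand): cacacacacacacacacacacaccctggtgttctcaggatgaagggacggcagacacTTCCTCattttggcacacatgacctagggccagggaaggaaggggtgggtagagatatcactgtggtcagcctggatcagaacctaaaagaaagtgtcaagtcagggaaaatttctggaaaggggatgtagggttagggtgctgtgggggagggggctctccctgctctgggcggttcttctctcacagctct
RefSeq windows of 300 bases, from 250 before to 50 after the start, were at hand for 7 of the 10 genes. The letters GAGGAA or their reverse complement TTCCTC occurred 3 times in the Mrc1 window, starting 180, 167 and 35 bases before the start site. Cd68 had 2 matches, C1qb and C1qc 1 each, and Cx3cr1, Lyz2 and Fcer1g none, so 4 of 7 windows held a match against 28.3% of all 32851 mouse windows. CpG dinucleotides numbered 1 (Lyz2) to 7 (Fcer1g) per window, beside a median of 7 over all windows. These matches are a description of the letters and not of binding.

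Total estimated fragments ranged from 5194238 to 14578341 per L/Z library and from 9900346 to 23498968 per P0 library. In L/Z libraries the targeted gene was listed at 0 fragments in both knockouts (Pld6 for Pld6 KO, Dnmt3l in Dnmt3l KO), and at P0 at most 3 fragments of it were left in any knockout library. The P0 Pld6 KO libraries were not uniform in Dnmt3l, with 6, 135, 30 and 145 fragments, against 53 and 72 in WT. The 45S ribosomal precursor Rn45s took 8.27% of fragments in L/Z WT 1 and 8.06% in Pld6 KO 1, against at most 0.3005% in the other 4 L/Z libraries, so these stand apart within their groups. Markers of L/Z spermatocytes (7 genes) summed to 1824 to 5964 CPM (counts scaled to library size) in the sorted libraries and to 42.6 to 204 CPM at P0, and the whole testes held prospermatogonial markers (6 genes) at 103 (Pld6 KO 1) to 390 CPM. Of the wider macrophage markers, 13 resident-macrophage genes were all detected at P0, although Vsig4 had at most 3 fragments in any library, and at L/Z Ccl24 and Vsig4 were listed at 0 in every library.

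In the P0 testes the macrophage genes were expressed at moderate levels that varied little between libraries. On the FPKM scale, which corrects for transcript length and so allows genes to be compared, mean levels over the 11 P0 libraries fell in the order Lyz2 (40.2), Fcer1g (27.2), Tyrobp (23.8), C1qc (19.6), C1qa (19.0), C1qb (18.5), Cd68 (10.5), Csf1r (6.67), Mrc1 (4.31) and Cx3cr1 (3.02). The 3 C1q chains thus had near-equal levels, and their ranges of 10.9 to 24.7, 11.8 to 25.0 and 12.3 to 31.2 FPKM for C1qa, C1qb and C1qc overlapped almost wholly. The ranges of Tyrobp (15.7 to 32.7) and Fcer1g (16.1 to 40.2) also overlapped each other and those of the C1q genes, whereas Cx3cr1 (1.70 to 4.79) did not reach the range of Cd68 (5.30 to 15.7). The highest library held 1.70 (Mrc1) to 2.97 (Cd68) times the level of the lowest, with a median of 2.20 over the 10 genes. DKO 2 was the highest library for 8 of the 10.

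In the sorted L/Z libraries the same genes were present at a lower level and varied far more between libraries, by up to 18.9 times between the 2 WT libraries (Lyz2). WT P0 testes held 2.78 (Mrc1) to 8.28 (Lyz2) times the mean FPKM of WT L/Z libraries, with a median of 4.61 times. Stage, tissue, sorting, RNA input and read type differ together and the tables were scaled separately, so these ratios were not tested. For Lyz2, Tyrobp and Fcer1g alone every L/Z library lay below every P0 library. The highest L/Z library held 4.13 (Cd68) to 18.9 (Lyz2) times the lowest, with a median of 11.8, against 2.20 at P0. WT 2 was the lowest library for 7 of the 10 genes and Dnmt3l KO 2 the highest for 8.

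**Figure D1:**
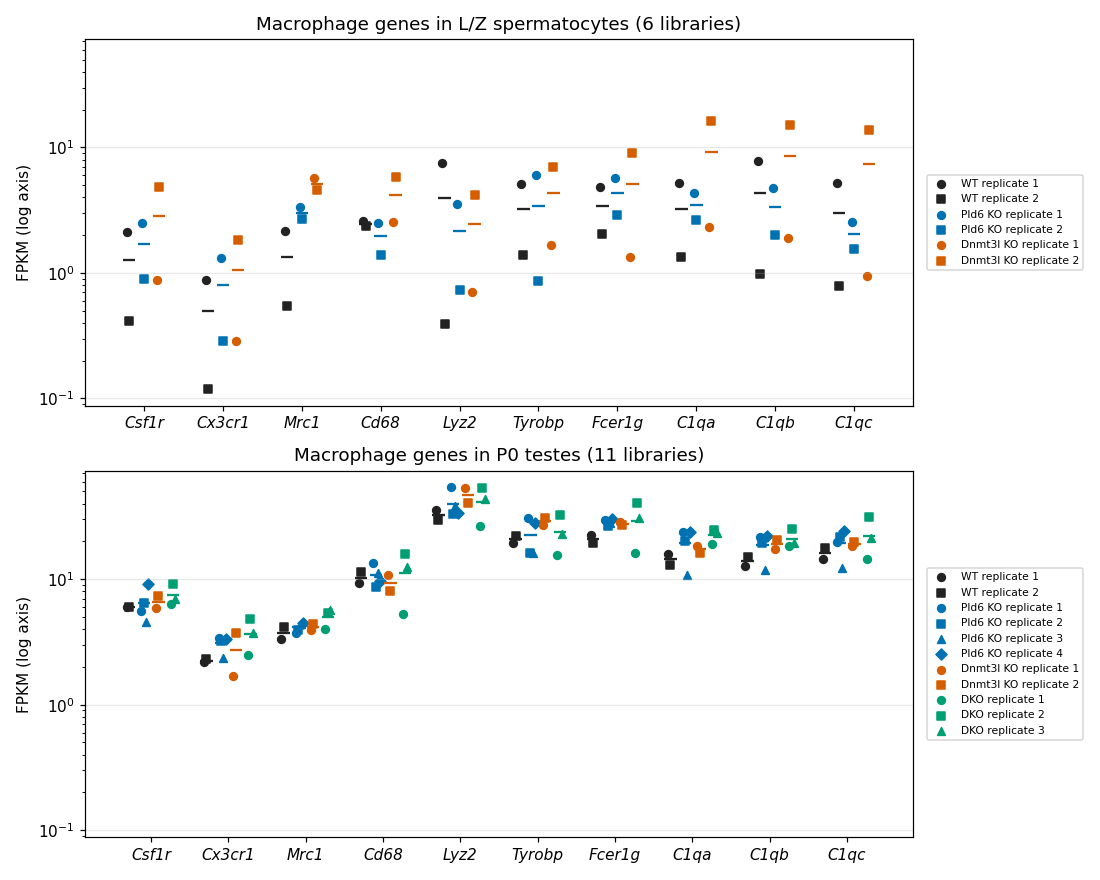
FPKM (log axis) of the 10 macrophage genes in each L/Z library (top) and each P0 library (bottom), coloured by genotype with a marker shape per replicate, and a short bar at each group mean. L/Z libraries spread by up to 18.9 times (Lyz2), whereas P0 libraries stayed within 2.97 times (Cd68).

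Among the receptors, Csf1r had 2.13 and 0.414 FPKM in the L/Z WT libraries (replicates 1 and 2), 2.49 and 0.891 for Pld6 KO, and 0.883 and 4.81 for Dnmt3l KO, so the Dnmt3l KO libraries held both a low and the highest value and all genotypes overlapped. Fitted to counts in edgeR, Csf1r differed by a log2 fold change of 1.22 (SE 0.80) between Dnmt3l KO and WT and did not pass the test (adjusted p = 0.349). Cx3cr1 rested on 5 to 93 fragments per L/Z library and spread in the same way, with 0.879 and 0.119 FPKM in WT, 1.31 and 0.285 for Pld6 KO, and 0.285 and 1.84 for Dnmt3l KO. Its genotypes overlapped throughout.

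Mrc1, the mannose receptor gene, was the exception at L/Z. Its counts were 130 and 33 in WT, 117 and 178 for Pld6 KO, and 144 and 332 for Dnmt3l KO, which Cuffdiff scaled to 2.14 and 0.545, 3.33 and 2.71, and 5.71 and 4.56 FPKM. Both Dnmt3l KO libraries thus lay above both Pld6 KO libraries, and these above both WT libraries, an order without overlap that 6.23% of all tested genes shared. Of all tested genes, 27.5% had both Dnmt3l KO libraries above both Pld6 KO libraries in FPKM (2 of the 10, Mrc1 and Cd68). For Cd68 this did not hold in CPM, with 2.599 in Dnmt3l KO 1 and 2.617 in Pld6 KO 1. Both Pld6 KO libraries lay above both WT libraries in FPKM for 21.3% of tested genes (Mrc1 alone of the 10). Mrc1 rose in Dnmt3l KO over WT by a log2 fold change of 1.92 (SE 0.49, 95% interval 0.85 to 2.99, edgeR adjusted p = 0.0395). It was the single gene of the 10 called in that comparison (FDR under 0.05 and fold change over 2), where 5.47% of all tested genes were called. For Pld6 KO over WT the log2 fold change was 1.16 (SE 0.48, 95% interval 0.10 to 2.23, edgeR adjusted p = 0.512). Between the mutants it was 0.76 (SE 0.47, adjusted p = 0.423).

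The Mrc1 call rested on few libraries and moved with the processing. Without WT 2, the library lowest for 7 of the 10 genes, the log2 fold change was 1.25 (edgeR adjusted p = 0.0522), without Dnmt3l KO 1 it was 1.76 (adjusted p = 0.249) and without Dnmt3l KO 2 it was 2.06 (adjusted p = 0.097), so the call was lost each time. Without WT 1, which was rich in Rn45s, it was 3.22 (adjusted p = 0.00596), and Mrc1 was then also called in Pld6 KO over WT (2.46, adjusted p = 0.0241). Mrc1 transcripts have a GC content of 43.4%, and 17.2% of tested genes have a lower one. With library-wise offsets for GC and length the Mrc1 log2 fold change was 1.58 (adjusted p = 0.0836), and 2% of tested genes and 0 of the 10 were called. The part of base composition in the result was otherwise not tested.

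Set against the other 9 genes, Mrc1 did not keep a fixed ratio at L/Z. Mrc1 FPKM divided by the median FPKM of the other 9 genes was 0.420 and 0.555 in WT, 0.931 and 1.93 for Pld6 KO, and 4.28 and 0.656 for Dnmt3l KO, a 10.2-fold spread. Dnmt3l KO 1 combined the highest Mrc1 level of the L/Z libraries (5.71 FPKM) with a median of 1.34 FPKM for the other 9. In the 11 P0 libraries the ratio stayed between 0.172 and 0.372. For comparison, the same ratio for C1qc spread 4.18-fold, for Cd68 5.85-fold and for Lyz2 3.88-fold at L/Z. The Cd68 ratio was highest in WT 2 (2.96), where Cd68 lay nearer to WT 1 in FPKM (2.35 and 2.58) than in CPM (1.87 and 2.71).

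**Figure D2:**
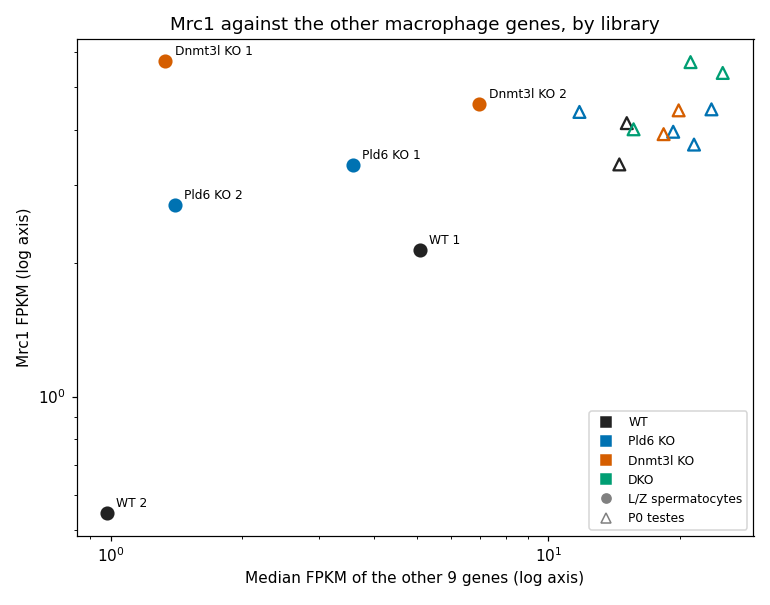
Mrc1 FPKM against the median FPKM of the other 9 macrophage genes (both log axes), 1 point per library, filled circles for L/Z (labelled by genotype and replicate) and open triangles for P0, coloured by genotype. P0 libraries form a cluster at Mrc1 3.34 to 5.69 FPKM, whereas the L/Z libraries scatter, with Dnmt3l KO 1 high in Mrc1 (5.71) and low in the others (1.34).

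Among the lysosomal genes, Cd68 had 2.58 and 2.35 FPKM in L/Z WT, 2.51 and 1.40 for Pld6 KO, and 2.57 and 5.80 for Dnmt3l KO, so Dnmt3l KO 2 was the highest library, Pld6 KO 2 the lowest, and the other 4 lay between 2.35 and 2.58. In CPM the WT libraries stood further apart, at 2.71 and 1.87, so the even level rests on the FPKM scaling. Lyz2 had 7.50 and 0.396 FPKM in WT, 3.57 and 0.729 for Pld6 KO, and 0.712 and 4.20 for Dnmt3l KO, from 3 to 76 fragments per library. It was highest in WT 1, not in Dnmt3l KO 2, and its log2 fold change was -0.54 (SE 1.07) in Dnmt3l KO and -0.96 (SE 1.11) in Pld6 KO, neither past the test. The sign in Dnmt3l KO rested on single libraries, at 2.73 without WT 1 and 0.077 without Dnmt3l KO 1. The log2 fold change was 2.02 with a factor for the Rn45s-rich libraries, which include WT 1.

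The adaptors followed Csf1r and Cx3cr1, not Mrc1. Tyrobp had 5.10 and 1.40 FPKM in WT, 6.0 and 0.857 for Pld6 KO, and 1.67 and 6.96 for Dnmt3l KO, from 3 to 36 fragments. Fcer1g had 4.81 and 2.04, 5.75 and 2.91, and 1.34 and 8.95 FPKM in the same order. In each genotype 1 library was high and the other low for both genes, and all genotypes overlapped.

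The C1q genes had the widest separation between the Dnmt3l KO replicates. C1qa had 5.18 and 1.35 FPKM in WT, 4.30 and 2.66 for Pld6 KO, and 2.30 and 16.2 for Dnmt3l KO. C1qb had 7.75 and 0.983, 4.74 and 1.99, and 1.89 and 15.1 FPKM, and C1qc had 5.25 and 0.794, 2.56 and 1.55, and 0.952 and 13.8 FPKM. Dnmt3l KO 2 was the highest library for all 3 and Dnmt3l KO 1 lay below WT 1 for all 3. None passed the edgeR test in Dnmt3l KO over WT, where the log2 fold changes were 1.57 (SE 0.78, adjusted p = 0.222) for C1qa, 1.04 (SE 0.90, adjusted p = 0.485) for C1qb and 1.38 (SE 0.95, adjusted p = 0.370) for C1qc. Their 95% intervals reached up to 3.46, so the libraries leave wide room for a difference.

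Over the 10 genes, the median log2 fold change at L/Z was 1.12 for Dnmt3l KO over WT, with 9 of 10 above 0, beside a median of -0.04 over all 14662 tested genes. It was 0.01 for Pld6 KO over WT, with 5 of 10 above 0, and 0.81 for Dnmt3l KO over Pld6 KO, with 10 of 10 above 0. Of all tested genes, 47.8%, 50.5% and 49.8% lay above 0 in these comparisons, in the same order. All 3 medians of the 10 genes rested on single libraries. Without Dnmt3l KO 2 the first was -0.90 and the last -0.93, and without WT 1 the first was 2.85. The median for Pld6 KO over WT was 1.52 without WT 1 and -0.86 without Pld6 KO 1. With a factor for the Rn45s-rich libraries the median was 2.51 and 3 genes were called (4.52% of all tested genes were called under this setting), Mrc1, Csf1r (2.56, edgeR adjusted p = 0.0439) and Cx3cr1 (2.99, adjusted p = 0.047). The rich libraries were WT 1 and Pld6 KO 1, and no Dnmt3l KO library was rich. The factor thus makes Dnmt3l KO over WT lean on WT 2, the lowest library for 7 of the 10, much as leaving out WT 1 does. In Pld6 KO over WT 0 of the 10 genes were called (0.225% of tested genes were called, 1345 of them had an unadjusted p under 0.05, Mrc1 among them), and in Dnmt3l KO over Pld6 KO 0 were called (background 0.0477%, with 2567 genes under an unadjusted p of 0.05 and no member). A test of any genotype difference at L/Z called 2.65% of genes at an FDR under 0.05 and 0 of the 10, with Mrc1 at an adjusted p of 0.101. The comparisons share their control libraries. Of the tested genes, 28.1% had every Dnmt3l KO library above every WT library in FPKM, and of the 10 Mrc1 alone did.

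The 9 other genes moved with each other over the L/Z libraries. Pearson's r of log2 CPM over the 6 libraries had a median of 0.84 over the 45 gene pairs, from 0.25 (Mrc1 with Fcer1g) to 0.99 (Csf1r with Cx3cr1). The C1q pairs had r of 0.97 to 0.98. Mrc1 had a median r of 0.42 with the other genes, which had medians of 0.77 (Cd68) to 0.91 (C1qb). These are descriptions over 6 libraries that differ in depth and in the level of several somatic marker lists. At P0, over 11 libraries, the median r was 0.53, from 0.06 (Csf1r with Cd68) to 0.87 (C1qb with C1qc), and the median r of Mrc1 was 0.46.

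Markers of other cell types moved over the same L/Z libraries. The summed CPM of the 10 genes was 51.0 and 11.1 in WT, 51.3 and 27.2 for Pld6 KO, and 41.8 and 105 for Dnmt3l KO. Peritubular myoid markers (5 genes) summed to 172 and 54.4, 119 and 52.8, and 58.6 and 170 CPM in the same order, and endothelial markers (6 genes) to 46.5 and 36.6, 51.2 and 26.5, and 29.8 and 57.0 CPM. Within each genotype the library that was higher in the macrophage genes was thus also higher in both of these lists. It was also higher in the pan-leukocyte and pan-macrophage list, which had 23.2 and 86.2 CPM for Dnmt3l KO. The CSF1-axis, monocyte, complement, ITAM partner and Leydig lists also kept that order. Resident-macrophage markers (13 genes) did not share it in Dnmt3l KO, with 32.4 and 30.3 CPM. MHC class II genes did not in WT (15.0 and 28.9 CPM). Phagocytosis and lysosome genes did not in WT (1571 and 1673) or Dnmt3l KO (2005 and 1527). Erythroid markers did not in Pld6 KO or Dnmt3l KO, nor dendritic cell markers and Cx3cl1 in Dnmt3l KO. Sertoli markers did not share that order in Dnmt3l KO, with 573 and 367 CPM in WT, 564 and 360 for Pld6 KO, and 354 and 98.4 for Dnmt3l KO, and lymphocyte markers did not share it in WT or Dnmt3l KO. The latter ranged from 7.26 to 29.1 CPM and were highest in Pld6 KO 1. Markers of L/Z spermatocytes summed to 1824 and 3144 CPM in WT, 2274 and 3551 for Pld6 KO, and 5763 and 5964 for Dnmt3l KO. All 7 had a log2 fold change above 0 in Dnmt3l KO over WT, where 47.8% of all tested genes did. Of the 7, 4 (Dmc1, Hormad1, Smc1b and Sycp1) were called, where 5.47% of all tested genes were. Mast cell markers (at most 0.237 CPM in sum) and neutrophil markers (at most 0.872 CPM) were near 0 in the L/Z libraries, and S100a8 and S100a9 were listed at 0 in each. How much of the members' values came from such carry-over of other cells was not tested.

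**Figure D3:**
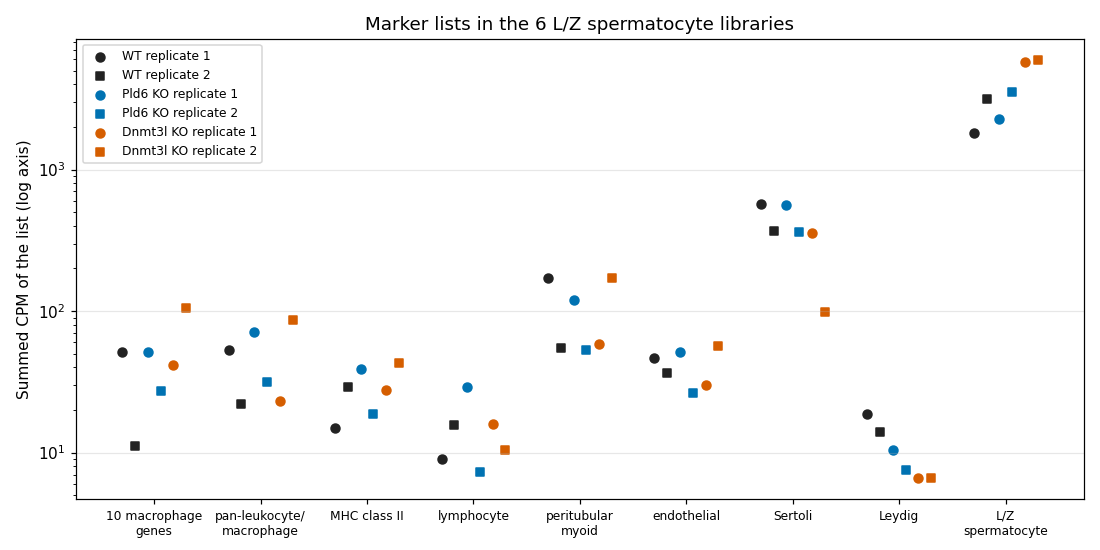
Summed CPM (log axis) of the 10 macrophage genes and of marker lists for other cells in the 6 L/Z libraries, 1 point per library, coloured by genotype with circles for replicate 1 and squares for replicate 2. The 10 genes span 11.1 to 105 CPM with Dnmt3l KO 2 highest. The myoid (52.8 to 172 CPM) and endothelial lists (26.5 to 57.0 CPM) show the same higher library within each genotype, while the Sertoli, MHC class II and lymphocyte lists do not.

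At P0 none of the 10 genes was called in any comparison, and the differences were small. The 10 genes had a median log2 fold change of 0.28 for Pld6 KO over WT, with 10 of 10 above 0, where edgeR called 0.00629% of the 15901 tested genes and 805 had an unadjusted p under 0.05. For Dnmt3l KO over WT it was 0.31, with 9 of 10 above 0 (0% of genes called, 2056 under an unadjusted p of 0.05), and for DKO over WT it was 0.47, with 10 of 10 above 0 (0.0126% called, 1268 under an unadjusted p of 0.05, of which 3 were members). The median over all tested genes lay between 0.01 and 0.03 in these comparisons, and 53.2%, 52.7% and 52% of tested genes lay above 0, in the same order. The comparisons share the 2 WT libraries, so the common sign is not 3 separate observations. Somatic markers moved over the same libraries, but not all in 1 direction. Sertoli markers (7 genes) summed to 4440 and 4655 CPM in WT. In the 9 mutant libraries they summed to 3004 to 4069 CPM, so every mutant library lay below WT. Leydig markers (6 genes) had 1520 to 1565 CPM in WT and 1264 to 1738 for DKO. For Pld6 KO they had 1701 to 3608 CPM and for Dnmt3l KO 1962 to 2666. Endothelial markers had 443 to 450 CPM in WT and 425 to 604 over all P0 libraries. Peritubular myoid markers had 673 to 1066 and 673 to 1590 CPM. The part of these cells in the shift of the 10 genes was not tested.

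C1qa had 15.8 and 13.03 FPKM in the P0 WT libraries, 23.8, 20.2, 10.9 and 23.6 for Pld6 KO, 18.3 and 16.2 for Dnmt3l KO, and 18.9, 24.7 and 23.4 for DKO. Every DKO and Dnmt3l KO library lay above both WT libraries, and Pld6 KO 3 lay below them. Its log2 fold change in DKO over WT was 0.66 (SE 0.29, edgeR adjusted p = 0.60). C1qb had 12.8 and 15.1 FPKM in WT, 21.5, 19.3, 11.8 and 22.2 for Pld6 KO, 17.4 and 20.7 for Dnmt3l KO, and 18.4, 25.0 and 19.4 for DKO, so that every DKO and Dnmt3l KO library again lay above both WT libraries and Pld6 KO 3 below them. Its log2 fold change in DKO over WT was 0.61 (SE 0.27, edgeR adjusted p = 0.59). C1qc had 14.5 and 17.7 FPKM in WT, 19.7, 21.7, 12.3 and 24.2 for Pld6 KO, 18.5 and 19.9 for Dnmt3l KO, and 14.5, 31.2 and 21.1 for DKO, so that DKO 1 did not lie above WT.

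Mrc1, the gene called at L/Z, had the narrowest range of the 10 at P0. It had 3.34 and 4.14 FPKM in WT, 3.70, 3.96, 4.39 and 4.45 for Pld6 KO, 3.91 and 4.43 for Dnmt3l KO, and 4.01, 5.37 and 5.69 for DKO, and the groups overlapped. The log2 fold change over WT was 0.14 (SE 0.19) in Pld6 KO, 0.18 (SE 0.22) in Dnmt3l KO and 0.45 (SE 0.20, edgeR adjusted p = 0.603) in DKO. The 95% interval for Dnmt3l KO ran from -0.29 to 0.64, below the interval of the L/Z comparison. The difference between the Dnmt3l KO effects at L/Z and P0, tested over 14 libraries, was 1.68 (SE 0.58, edgeR adjusted p = 0.167) for Mrc1 and did not pass, where 0.665% of genes were called. For Pld6 KO that difference was 0.96 (SE 0.54, adjusted p = 0.58), where 0.0121% of genes and 0 of the 10 were called. Without L/Z WT 1 Mrc1 was called in both tests.

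Csf1r had 6.01 and 5.98 FPKM in WT, 5.63, 6.49, 4.57 and 9.09 for Pld6 KO, 5.86 and 7.36 for Dnmt3l KO, and 6.38, 9.11 and 6.89 for DKO. The DKO libraries lay above both WT libraries, and the other mutants overlapped with WT. Cx3cr1 had 2.18 and 2.32 FPKM in WT, 3.39, 3.22, 2.38 and 3.36 for Pld6 KO, 1.70 and 3.76 for Dnmt3l KO, and 2.48, 4.79 and 3.70 for DKO. All Pld6 KO and DKO libraries lay above WT, while the Dnmt3l KO libraries fell on either side, and the log2 fold change in DKO was 0.72 (SE 0.34, edgeR adjusted p = 0.631).

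Lyz2, the most abundant of the genes at P0, had 35.6 and 29.8 FPKM in WT, 54.0, 33.1, 38.2 and 33.6 for Pld6 KO, 53.7 and 40.6 for Dnmt3l KO, and 26.3, 53.4 and 43.5 for DKO. Both Dnmt3l KO libraries lay above WT, and the DKO libraries lay on both sides of it. Cd68 had 9.29 and 11.3 FPKM in WT, 13.5, 8.64, 11.2 and 9.60 for Pld6 KO, 10.7 and 8.04 for Dnmt3l KO, and 5.30, 15.7 and 12.5 for DKO, and its DKO libraries held both the lowest and the highest value at P0. Tyrobp ranged from 15.7 (DKO 1) to 32.7 (DKO 2) FPKM, with 19.5 and 22.1 in WT, and Fcer1g from 16.1 (DKO 1) to 40.2 (DKO 2), with 22.4 and 19.4 in WT. For these 4 genes DKO 1 was thus the lowest library of all 11. That library also stood apart in Rn45s, at 4.43% of fragments against at most 0.981% in the other P0 libraries, and without it the median over the 10 genes in DKO over WT was 0.65 in place of 0.47.

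The number of genes whose mutant libraries all lay above WT was read against the table as a whole. In Pld6 KO it was 2 of the 10 (Cx3cr1 and Fcer1g) where 5.79% of tested genes did so, in Dnmt3l KO 6 of 10 (the C1q genes, Lyz2, Tyrobp and Fcer1g) where 22.5% did, and in DKO 4 of 10 (Csf1r, Cx3cr1, C1qa and C1qb) where 14.6% did. None of these genes passed the adjusted test.

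Between the mutants at P0 the 10 genes did not differ by the test either. The median log2 fold change was 0.21 for DKO over Pld6 KO (0 members called, 0% of genes called, 957 under an unadjusted p of 0.05 with no member), and for DKO over Dnmt3l KO 0.18 (0 members, 0.0755% of genes). Both rested on DKO 2, without which they were -0.03 and -0.05. The departure of the DKO from additive effects of both mutations had a median of -0.09 over the 10 genes and was called for none (0% of genes, 1740 under an unadjusted p of 0.05 with no member). It was -0.51 (SE 0.39) for Lyz2 and 0.13 (SE 0.27) for Mrc1. A test of any genotype difference at P0 called 0.044% of genes and none of the 10.

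**Figure D4:**
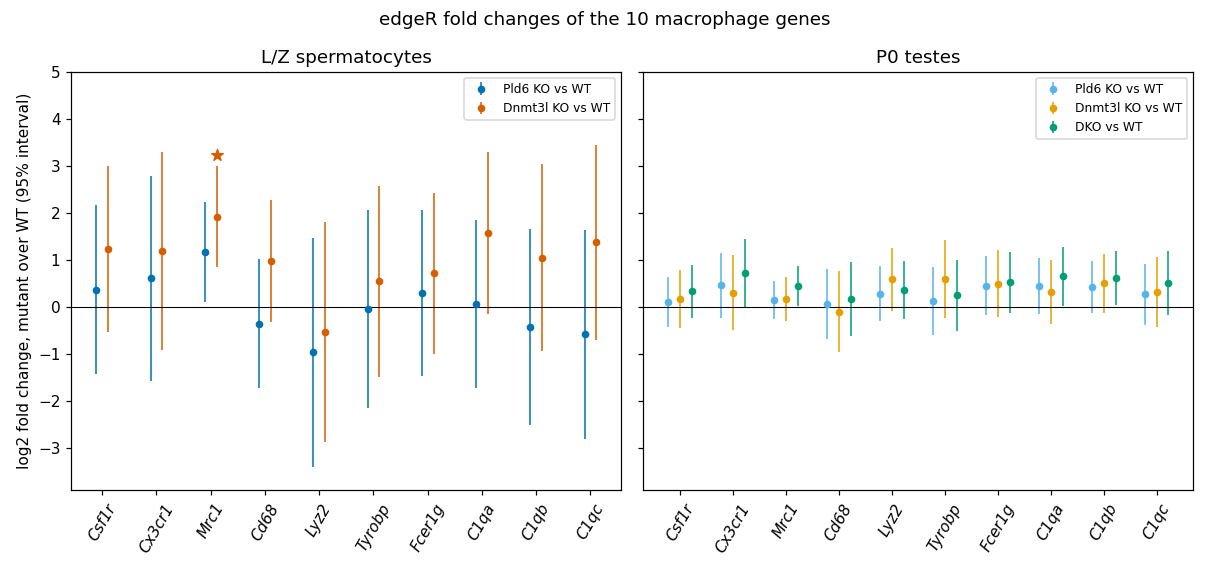
edgeR log2 fold changes of the 10 genes over WT with 95% intervals, in L/Z spermatocytes (left) and P0 testes (right), coloured by mutant, with a star above a gene that passed an FDR under 0.05 and a fold change over 2. Mrc1 in Dnmt3l KO at L/Z (1.92, interval 0.85 to 2.99) carries the one star, and the P0 intervals are narrower than those at L/Z.

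Mast cell, neutrophil and erythroid markers spread more widely over the P0 libraries than the macrophage genes did. The summed CPM of the 10 genes ran from 147 (DKO 1) to 258 (DKO 2), 1.75 times. Mast cell markers (6 genes) summed to 5.04 to 9.01 CPM in WT, 5.05 to 73.7 for Pld6 KO, 18.4 to 26.5 for Dnmt3l KO and 7.14 to 67.9 for DKO, 14.6 times over the libraries. Neutrophil markers (8 genes) summed to 33.6 to 68.8 CPM in WT and 17.0 to 68.7 for Pld6 KO. They summed to 99.0 to 177 CPM for Dnmt3l KO and 41.5 to 125 for DKO. Both Dnmt3l KO libraries thus lay above WT in the neutrophil and in the mast cell markers. In FPKM they also did so for Lyz2, Tyrobp, Fcer1g and the C1q genes, and for 22.5% of all tested genes. Erythroid markers ran from 238 to 1154 CPM. The part of these cells in the values of Lyz2, Tyrobp and Fcer1g was not tested.

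The wider macrophage lists also had 0 genes called in any comparison at P0. Of all tested genes, 52% had a log2 fold change above 0 in DKO over WT, 53.2% in Pld6 KO and 52.7% in Dnmt3l KO. All lists were read in the same libraries against the same 2 WT libraries, so their counts are not separate observations. In DKO over WT, 17 of 17 tested pan-leukocyte and pan-macrophage genes had a log2 fold change above 0 (median 0.53), against 11 of 17 in Pld6 KO (median 0.13) and 17 of 17 in Dnmt3l KO (median 0.72), among them Lcp1, an actin-bundling protein of leukocytes (8.38 to 12.7 FPKM over the P0 libraries), and Mpeg1, a pore-forming protein of phagocytes (4.69 to 9.08). Of 9 tested resident-macrophage genes 9 lay above 0 (median 0.80), against 8 in Pld6 KO (median 0.52) and 7 in Dnmt3l KO (median 0.73), and the most abundant were Gas6, a ligand that bridges dying cells to phagocytes (107 to 160 FPKM), and Stab1, a scavenger receptor (2.55 to 6.45), both of which other testis cells also express. Of 10 tested complement partners 10 lay above 0 (median 0.73), against 10 in Pld6 KO (median 0.42) and 8 in Dnmt3l KO (median 0.54), with Serping1, the inhibitor of the C1 proteases, at 43.0 to 162 FPKM and the protease gene C1ra at 33.2 to 45.7. Of 10 tested genes of the CSF1 axis and myeloid transcription factors 8 lay above 0 (median 0.34), against 7 in Pld6 KO (median 0.26) and 6 in Dnmt3l KO (median 0.06), led in level by Maf (11.7 to 19.3 FPKM) and Cebpa (7.68 to 15.4).

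In the MHC class II list, by which antigen-presenting cells are told from other macrophages, H2-Aa had 3.46 to 8.95 FPKM at P0. H2-Eb1 had 1.35 to 3.76 FPKM. In DKO over WT 5 of 6 genes lay above 0 (median 0.57), against 5 in Pld6 KO (median 0.30) and 5 in Dnmt3l KO (median 0.25). Monocyte markers gave 4 of 5 above 0 (median 0.54), against 3 in Pld6 KO (median 0.38) and 4 in Dnmt3l KO (median 0.84). Cd44 had 4.42 to 13.6 and Ly6c1 7.12 to 19.3 FPKM. Partners of the ITAM adaptors gave 7 of 9 (median 0.45), against 5 in Pld6 KO (median 0.04) and 7 in Dnmt3l KO (median 0.96). Plcg2 had 1.80 to 11.5 and the kinase gene Syk 3.46 to 6.39 FPKM. Cx3cl1, the ligand of the Cx3cr1 receptor, had 12.5 to 27.8 FPKM. Its log2 fold change over WT was -0.09 for DKO, -0.15 for Pld6 KO and -0.84 for Dnmt3l KO, without a call. Phagocytosis and lysosome genes gave 10 of 15 in DKO (median 0.09), against 13 in Pld6 KO (median 0.23) and 12 in Dnmt3l KO (median 0.11). They were led by Ctsl (446 to 903 FPKM) and the receptor gene Axl (96.8 to 152), both used by many cell types.

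At L/Z 1 of the 62 tested genes of these lists was called in Dnmt3l KO over WT, where 5.47% of all tested genes were. Cd36, a scavenger receptor and fatty acid transporter that was noticed only after its values were seen, had 7 and 4 fragments in WT, 20 and 28 for Pld6 KO, and 24 and 76 for Dnmt3l KO, and rose in Dnmt3l KO over WT by a log2 fold change of 3.43 (SE 0.58, edgeR adjusted p = 0.0126). Its FPKM was 0.185 and 0.106 in WT, 0.910 and 0.682 for Pld6 KO, and 1.52 and 1.65 for Dnmt3l KO, in the order without overlap that 6.23% of tested genes had. At P0 Cd36 ranged from 3.03 to 8.36 FPKM without a call. The other wider lists gave 0 calls at L/Z. Of all tested genes, 47.8% had a log2 fold change above 0 in Dnmt3l KO over WT. The median log2 fold change in Dnmt3l KO over WT was 0.90 for the 14 tested pan-leukocyte and pan-macrophage genes, of which 13 lay above 0. It was 1.12 for 5 MHC class II genes (4 above 0), 1.45 for 3 monocyte genes (3 above 0) and 0.47 for 9 complement partners (5 above 0). For the 5 tested resident-macrophage genes it was -0.59, and 2 lay above 0. For 9 genes of the CSF1 axis and myeloid transcription factors it was -0.62, and 1 lay above 0. Phagocytosis and lysosome genes (0.05) and partners of the ITAM adaptors (0.001) had medians near 0.

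A search was made for genes whose P0 pattern was most like that of the 10. Their mean z-score was lowest in Pld6 KO 3 (-0.88) and DKO 1 (-0.86), then -0.78 and -0.66 in the WT libraries, and highest in DKO 2 (1.52). Over 12536 other genes averaging 50 counts or more, the highest Pearson correlations with it over the 11 P0 libraries were those of Ndnf (0.931), Arhgdib (0.918), B2m (0.916), Gm266 (0.908) and Plek (0.903). B2m encodes the light chain of MHC class I and Plek a protein kinase C substrate of platelets and leukocytes. None of these named genes, Ndnf at the top included, was on a wider macrophage list. The highest-ranked gene of those lists was H2-Aa, at rank 18 (0.869). Of 53 genes of the wider macrophage lists that entered the search, 4 fell in the top 125, the highest 1%. With 11 libraries and so many genes, these values describe likeness and nothing more.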

How the data were processed

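Poly(A) RNA libraries (stranded kit) were aligned by the authors to mm10 with TopHat2 and quantified with Cuffdiff, whose versions are not given in the sources used here. Each stage has a deposited table with unscaled, estimated counts of fragments (98.4% of L/Z and 98.3% of P0 values whole within 0.001) and the authors' FPKM values, scaled by Cuffdiff to transcript length and library size. Cuffdiff shares fragments between similar or overlapping genes by likelihood. Replicate numbers start at 0 in the tables and at 1 in the labels and were matched in rising order, which touches replicate names only. Genes with a failed status in any library (6 at L/Z, 2 at P0, no macrophage gene) were left out.

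Estimated counts were rounded and tested over whole tables in R 4.3.3 with edgeR 4.0.16 (filterByExpr, TMM, quasi-likelihood test, all groups of a stage in 1 fit, 14662 genes at L/Z and 15901 at P0). All 10 genes passed the filter at both stages. Calls needed an FDR (Benjamini-Hochberg adjusted p) under 0.05 and a fold change over 2, with no fold threshold for the departure from additivity, the any-genotype test and the difference between stages (14 libraries, 16547 genes). CPM used TMM-scaled library sizes, and log2 CPM a prior count of 2. The edgeR fit of each stage was tried on simulated counts for 1 comparison, Dnmt3l KO over WT at L/Z and Pld6 KO over WT at P0. The other fits and tests were not tried in this way. Alternatives used DESeq2 1.42.0, limma 3.58.1 and other settings. Of these, 2 were chosen after seeing the data and were run at L/Z only. They were a factor for libraries with over 1% Rn45s, and a loess offset of span 0.3 on GC content and length (GENCODE transcripts). Promoter windows came from RefSeq (GRCm38.p6). Python 3.11.15, pandas 2.3.3, numpy 2.4.6 and matplotlib 3.10.9 were used. At L/Z a gene could rest on as few as 3 fragments, which limits precision, and p-values measure the spread between libraries that the labels call biological replicates.

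The 10 genes, the marker lists and the tests were chosen with earlier results of these data known. All 10 genes were named, with the targeted genes, the 2 genes of highest mean P0 CPM per wider macrophage list, any list gene called at P0, and the 5 genes most like the 10 at P0. Same-numbered WT and Pld6 KO libraries deviated together at L/Z (r = 0.485), but neither did so with Dnmt3l KO (r = -0.144 and -0.135), and at P0 r ran from -0.332 to 0.271, so the numbers were not taken to pair the libraries. The symbol Adgre1 is listed under its older name, Emr1, and data types other than poly(A) RNA were not analysed here.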

Additional observations from a re-analysis of the deposited data

Results flagged for a closer look

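Cx3cr1 in Pld6 KO 3 at P0 had 8.65 CPM and lay apart from the other 3 Pld6 KO libraries by Dixon's test, the single case among the 10 genes tested in that group of 4, where chance flags about 1 in 20 groups. Its FPKM there was 2.38, against 3.22 to 3.39 in the other Pld6 KO libraries and 2.18 and 2.32 in WT. The groups of 2 and 3 libraries were not examined in this way.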

How the results depend on the processing

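At P0 0 of the 10 genes were called in any comparison under every alternative run, the DESeq2 Wald test and limma included, and the median over the 10 genes kept its sign in each comparison of a mutant with WT. Without DKO 2 it turned to -0.03 in DKO over Pld6 KO and to -0.05 in DKO over Dnmt3l KO. Cd68 in DKO over WT turned to -0.003 with limma on log2(FPKM + 1) and to -0.017 on log2(FPKM + 0.1). At L/Z the Mrc1 call in Dnmt3l KO over WT gave 1 gene under most settings and 0 with limma on log2(FPKM + 0.1) and with the GC and length offset. It gave 3 genes with the factor for 45S-rich libraries, where 4.52% of all tested genes were called, and Lyz2 was then at 2.02. No Dnmt3l KO library was 45S-rich, so that setting leans on WT 2 much as leaving out WT 1 does. The any-genotype test at L/Z called 1 gene, Mrc1, without the filter on low counts. With the replicate number as a block, Lyz2 in Dnmt3l KO over WT was at 0.42 and the median of the 10 genes at 1.40. The block changed no other call. Leaving out 1 library at a time, the number of genes called at L/Z ran from 0 to 1 in Pld6 KO over WT, in Dnmt3l KO over WT, in the any-genotype test and in both tests between stages. The median over the 10 genes ran from -0.86 to 1.52 in Pld6 KO over WT, from -0.90 to 2.85 in Dnmt3l KO over WT and from -0.93 to 1.92 in Dnmt3l KO over Pld6 KO. Single genes in Dnmt3l KO over WT ran from -0.55 to 2.84 (Csf1r), -0.82 to 3.24 (Cx3cr1), -0.53 to 2.85 (C1qa), -1.23 to 3.18 (C1qb), -1.68 to 3.29 (C1qc), -2.47 to 2.73 (Lyz2), -0.97 to 1.74 (Tyrobp) and -1.37 to 1.46 (Fcer1g). The lowest of these values came without Dnmt3l KO 2 and the highest without WT 1. At P0 in DKO over WT, Cd68 ran from -0.16 to 0.48 and Tyrobp from -0.071 to 0.47, lowest without DKO 2. Where 1 library was left in a group, it was assumed to vary like the others. The causes were not tested. DESeq2's Wald test was not run for the any-genotype and stage tests, nor were limma and the block for the stage tests. The 2 libraries per L/Z group and counts down to 3 fragments limit what could be detected there.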
